A study of Mus musculus with 7 samples.

Results

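Monocytes and macrophages are the mononuclear phagocytes of the heart. A resident population keeps itself going in the tissue and clears debris, and monocytes from the blood enter after injury and mature into macrophages. Their growth and survival depend on colony-stimulating factors, their identity on the transcription factor PU.1 (encoded by Spi1), and their uptake of antibody-coated particles on Fc receptors that signal through small adaptors with an ITAM motif. The 39 genes described here are a list of such markers and effectors, matched to probes by symbol. A probe named by its transcript accession was present for 38 of the 39. Ly6c2, which marks inflammatory monocytes, had no matched probe, and its expression was not analysed here. All 38 measured genes passed the filter on dim probes, out of 21154 named genes with a probe and 22344 features (named genes or unnamed probes) that were tested.

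RNA was taken from the apex of 7 hearts of 3-month-old male C57BL/6 mice and hybridised to 1-colour arrays. The KO group (3 hearts) carried a floxed p38α MAPK gene on both alleles and 1 copy of MerCreMer, a tamoxifen-inducible Cre recombinase driven by the cardiomyocyte promoter α-MHC. The control group (4 hearts) carried the floxed alleles without Cre. Mice of both groups received hydroxytamoxifen (500 µg per day for 10 days, begun at 6 weeks) and then angiotensin II, a hormone that raises blood pressure, by minipump at 1.5 mg/kg per day for 48 hours. There was no group without angiotensin II or without hydroxytamoxifen, and loss of p38α in cardiomyocytes cannot be told apart from the presence of Cre. Of the 4 KO hearts that the study describes, 1 is not analysed here.

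The array signal has no absolute unit. All levels below are log2 signals relative to the 75th percentile of the same array, so that 0 is the signal at that percentile, and differences are KO minus control. On each array 46.03% to 49.68% of probes were well above background. As a check of the labels, an Esr1 probe was examined, which the ligand-binding part of MerCreMer could light up. It was well above background in 3 of 3 KO hearts and 0 of 4 control hearts and at least 40.7-fold higher in KO. The KO hearts were unequal, at -0.82, 0.07 and 4.50, so KO 3 set much of this size. For this probe the log2 difference tested was 7.11 (limma, adjusted p = 0.0123). The other Esr1 probes were well above background on no array. The brighter Mapk14 (p38α) probe differed by 0.22 ± 0.12 (SE; limma, adjusted p = 0.202); whether it lies in the floxed exons was not examined, and other cell types of the heart keep the gene. Of all features 25.2% were called at an adjusted p under 0.05, 10.2% higher in KO and 15.0% lower, and the median difference over all features was -0.06. The labelled tissue was borne out by 8 of 8 cardiomyocyte markers above background.

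Monocyte and macrophage transcripts were mostly higher in KO hearts. Of the 38 genes, 17 rose and 0 fell, against 10.2% and 15.0% of all features (limma). At an unadjusted p under 0.05, 27 were higher and 2 lower (Retnla and Timd4), against 9510 of 22344 features in either direction (limma). In these counts, Chil4 and Spi1 passed the filter on dim probes through the KO hearts alone, and Timd4 through the control hearts alone. With only probes well above background on all 7 arrays, 17 of 34 genes rose and 1 fell (Retnla). Of 19831 features, 2267 rose and 3253 fell under that filter. A further count is of direction alone: 36 of the 38 genes had a difference above 0, and the median difference was 1.09, a 2.13-fold higher signal, against -0.06 over all features. The risers were spread over every group of functions but 1: Fc receptors and their adaptors (5 of 6), oxidase subunits (2 of 3), growth factor and receptor genes (2 of 3), the chitinase-like genes Chil3 and Chil4, 2 of 5 resident markers, Plac8, Spi1, Msr1 and Cd84. None of 4 pan-macrophage genes passed the test. In 23 of 38 genes all 3 KO hearts lay above all 4 control hearts, as in 17.6% of all features, and in 1, Retnla, all KO hearts lay below all control hearts, as in 21.4% of all features. In bulk tissue a change in the number of cells of a type and a change in RNA per cell cannot be told apart.

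The hearts within a group differed in these genes more than in most. The median SD over the 38 genes was 0.44 in KO hearts and 0.64 in control hearts, against 0.22 and 0.24 over all features. KO 3 was the highest KO heart in 28 of 38 genes and KO 2 the lowest in 22. Among controls, control 2 was highest in 27, and control 3 or control 4 was lowest in 13 and 18. The control spread followed the position of the arrays: all 7 shared 1 slide, with KO 1 and controls 1 and 2 in row 1 and KO 2, KO 3 and controls 3 and 4 in row 2. Controls 1 and 2 both exceeded controls 3 and 4 in 30 of 38 genes, a pattern found in 25.0% of all features, and both lay below them in 3 of 38, against 33.7% of all features. Within row 1, KO 1 exceeded both controls in 30 of 38 genes, against 41.1% of all features, and fell below both in 6, against 43.9%; the median difference was 0.50. Within row 2, both KO hearts exceeded both controls in 33 of 38 genes, against 28.9% of all features, and fell below both in 2, against 37.9%; the median difference was 1.58. With the row as a block in the fit, 25 genes rose, 1 fell (Retnla) and the median difference was 1.21. Of all 22344 features, 3585 rose and 4817 fell in that fit. These within-row comparisons were chosen after seeing the data, and whether position or the animals set the control spread was not tested.

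**Figure D1:**
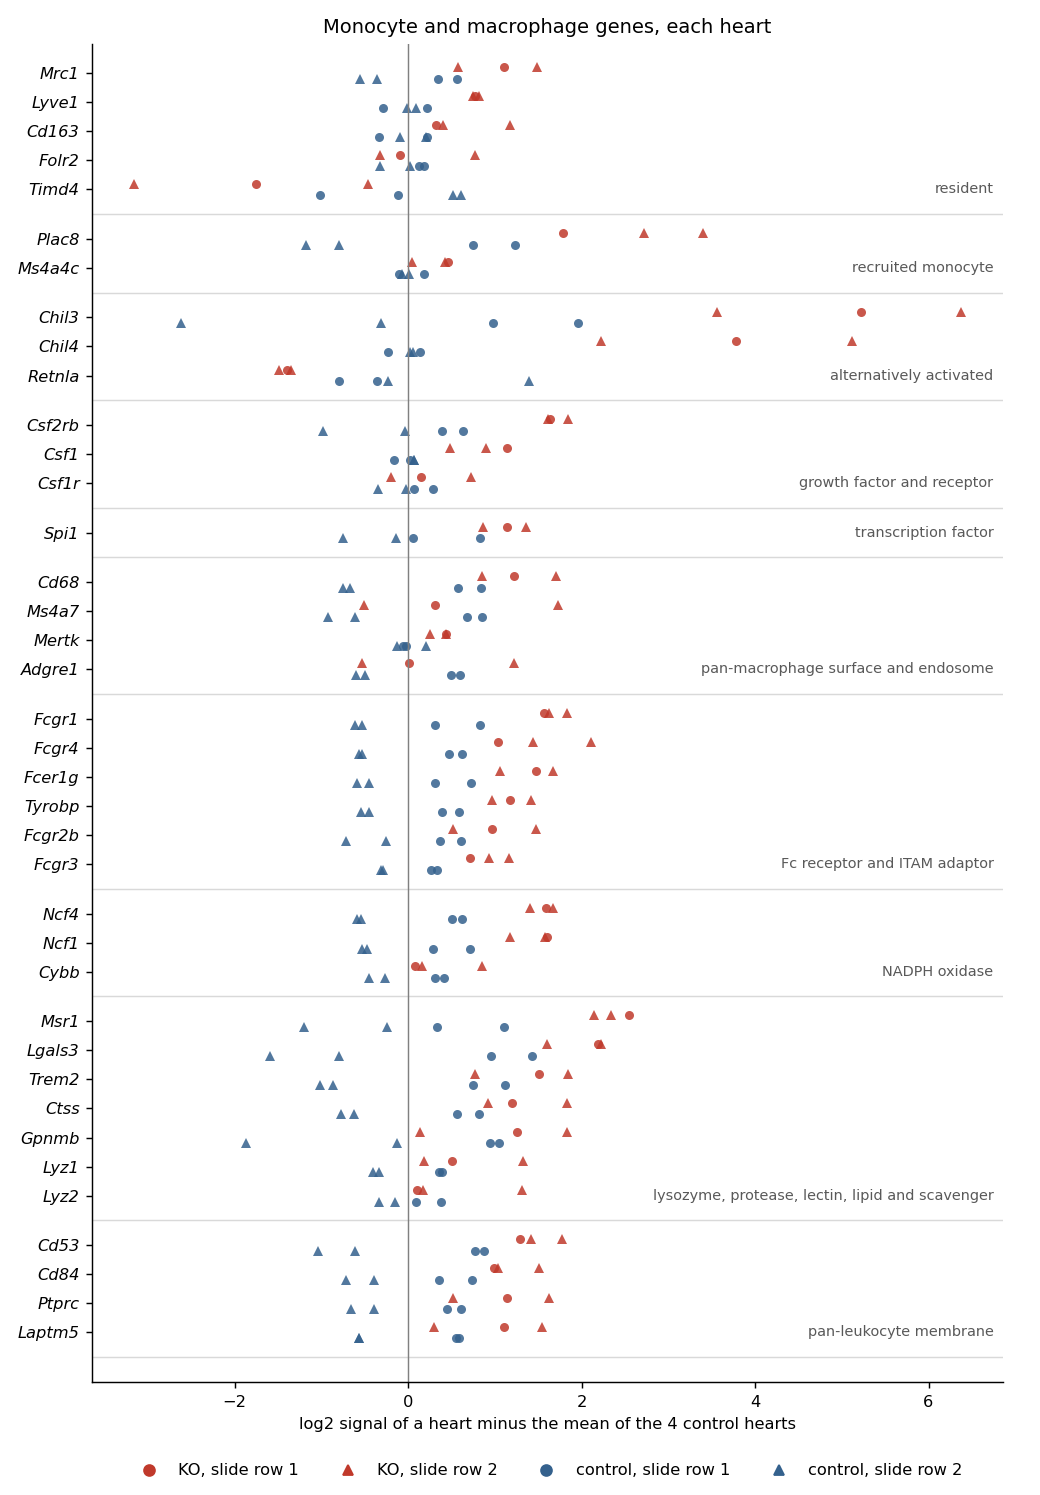
Log2 signal of each heart minus the mean of the 4 control hearts (x axis) for the 38 monocyte and macrophage genes (rows, grouped by function). Red symbols above are KO hearts, blue symbols below are control hearts, circles are arrays in slide row 1 and triangles arrays in slide row 2; KO hearts lie right of all control hearts in 23 genes, and the blue circles lie right of the blue triangles in 30.

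The calls rested on the few KO hearts. Without KO 1, 0 of the 38 genes passed limma's test after adjustment and 69 features in all did. At an unadjusted p under 0.05, 21 genes were then higher and 2 lower, against 6290 of 22344 features in either direction (limma). Without KO 2, 1 gene passed after adjustment (Chil4), against 1138 features. Without KO 3, 10 genes were called higher and 1, Timd4, lower, and without control 3 or control 4, 9 were called higher. Of all 22344 features, 2482 were higher and 3269 lower without KO 3, and 961 and 770 higher without control 3 or control 4. The median difference stayed between 0.88 and 1.34 whichever heart was left out. The call of every one of the 38 genes given below was therefore lost without KO 1, and every one but that of Chil4 without KO 2.

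**Figure D2:**
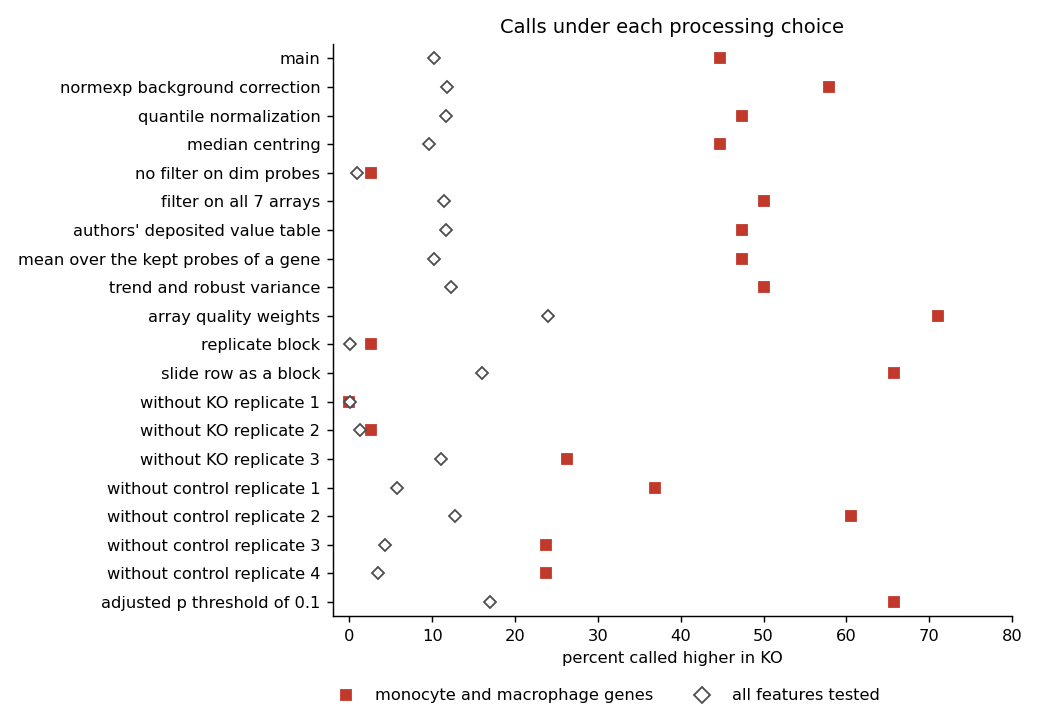
Percent called higher in KO (x axis) among the 38 genes (red squares) and among all features tested (open diamonds) under each processing choice or with 1 heart left out (rows). With all hearts the shares rest on 17 genes and 10.2% of features; without KO 1 they rest on 0 genes and 0.0895% of features.

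The resident markers gave mixed results, with 2 of 5 higher and 0 lower, against 10.2% and 15.0% of all features. Their median difference was 0.63. Lyve1, a hyaluronan receptor that marks a vessel-associated resident population and also lymphatic endothelium, was at 1.93, 1.97 and 1.90 in KO hearts, against 1.37, 0.86, 1.24 and 1.14 in control hearts. The KO hearts were nearly equal and all above the controls, and Lyve1 rose by 0.78 ± 0.15 (SE; limma, adjusted p = 0.0154). Its difference was as large in both slide rows, 0.82 in row 1 and 0.75 in row 2. Of 3 detected lymphatic markers other than Lyve1, 1 rose (Pdpn, by 1.79 on the log2 scale; limma, adjusted p = 0.0300) and 1 fell (Prox1, with a difference of -1.43; limma, adjusted p = 0.0126), both named after their values were seen. Their summed linear level, in multiples of the array's 75th percentile, was 11.88 to 17.61 in KO hearts and 3.235 to 8.969 in control hearts. These ranges were set mostly by 1 bright probe, that of Pdpn, and do not describe the 3 markers as a set. Reln was above background on no array, and the part of lymphatic cells in the Lyve1 result was not tested.

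Mrc1, the mannose receptor CD206, was at 3.70, 3.18 and 4.09 in KO hearts, against 2.94, 3.16, 2.24 and 2.05 in control hearts. KO 2 and control 2 almost met, and the rise of 1.06 ± 0.33 only just passed (SE; limma, adjusted p = 0.0483). It did not pass with median centring, or without any 1 of KO 1, KO 2, KO 3, control 1, control 3 or control 4. Folr2, a folate receptor of resident macrophages, was at 2.08, 1.85 and 2.94 in KO hearts, against 2.36, 2.30, 1.85 and 2.19 in control hearts. Its groups overlapped fully, with a difference of 0.12 (95% interval -0.50 to 0.74; limma, adjusted p = 0.760), and the sign turned without KO 3, to -0.21.

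Cd163, the haemoglobin scavenger receptor, was at -2.61, -1.75 and -2.52 in KO hearts, against -2.71, -3.26, -2.72 and -3.02 in control hearts. All KO hearts lay above the controls, but by a margin of 0.63 ± 0.25 that did not pass (SE; limma, adjusted p = 0.0892). Timd4, a phosphatidylserine receptor that marks self-maintaining resident macrophages, went the other way, at -4.85, -6.26 and -3.56 in KO hearts, against -3.21, -4.11, -2.58 and -2.49 in control hearts. Only 1 of 3 KO hearts and 3 of 4 controls were well above background for it, and its difference of -1.79 ± 0.63 did not pass (SE; limma, adjusted p = 0.0711). The difference was -0.58 with the normexp background correction.

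Of 16 further resident genes that passed the filter, 1 rose and 0 fell, against 10.2% and 15.0% of all features. Their median difference was 0.27. The riser was Ednrb, an endothelin receptor that marks a resident subset but is also made by vessel cells, at 0.72, 0.68 and 0.79 in KO hearts, against 0.31, -0.14, 0.14 and 0.24 in control hearts (difference 0.59 ± 0.15 SE; limma, adjusted p = 0.0257). Cd209g was above background on no array.

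Of the recruited-monocyte genes, Plac8, a small protein abundant in inflammatory monocytes and also in granulocytes, was at 0.39, 1.33 and 2.01 in KO hearts, against -0.65, -0.16, -2.19 and -2.57 in control hearts. The KO hearts were all higher, and Plac8 rose by 2.64 ± 0.64 (SE; limma, adjusted p = 0.0249), a 6.22-fold difference. The size depended on the slide row, with 0.80 in row 1 and 4.05 in row 2, and the call was also lost without KO 3, control 3 or control 4. A second Plac8 probe gave 2.28.

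Ms4a4c, a membrane protein of Ly6C-high monocytes, is uncertain because its probes disagree. Its brightest probe, the one tested, was at 6.29, 5.88 and 6.25 in KO hearts, against 6.01, 5.72, 5.84 and 5.76 in control hearts, and did not pass (difference 0.31; limma, adjusted p = 0.163). The other 2 probes were dim and differed by 1.97 and 2.69, with all KO hearts above all controls on each, and the mean over its 3 probes differed by 1.66, which passed.

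Of 12 further monocyte genes, 7 rose and 0 fell, against 10.2% and 15.0% of all features, with a median difference of 1.68. Ear2, a ribonuclease, was at -0.14, -0.42 and -0.72 in KO hearts, against -2.54, -2.28, -2.66 and -1.97 in control hearts. It rose by 1.93 ± 0.21 (SE; limma, adjusted p = 0.00891). F10, coagulation factor X, rose by 3.31 ± 0.54 and Cd14, the lipopolysaccharide co-receptor, by 1.43 ± 0.24 (SE; limma, adjusted p = 0.0125 and 0.0126). Cd14 is also made by neutrophils, whose markers are given below.

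The genes that mark alternative activation, the state that interleukin-4 and interleukin-13 induce in mouse macrophages, split. Chil3, the chitinase-like lectin Ym1, had the greatest difference of the 38 genes, at 4.78, 5.93 and 3.11 in KO hearts, against 0.53, 1.51, -0.76 and -3.07 in control hearts. The lowest KO heart stood above the highest control, and Chil3 rose by 5.05 ± 1.08, a 33.2-fold difference (SE; limma, adjusted p = 0.0189). The log2 difference was 4.39 without KO 2, 5.80 without KO 3, 5.71 without control 2 and 4.18 without control 4. Its difference was 3.76 within row 1 and 6.43 within row 2. Ym1 is made by alternatively activated macrophages, by some monocytes and by neutrophils.

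Chil4, the close relative Ym2, was at -2.39, -1.05 and -3.95 in KO hearts, against -6.40, -6.03, -6.15 and -6.11 in control hearts. No control heart was well above background, so Chil4 passed the filter through the KO hearts alone and only a bound holds. On the processed signal it was at least 3.10-fold higher in KO. The log2 difference tested was 3.71 (limma, adjusted p = 0.0123), which rests on background-level control signals and was 1.14 with normexp. The bound was 1.90-fold without KO 2 and 5.20-fold without KO 3. The hearts ran in the same order for both genes among KO hearts, with KO 2 highest and KO 3 lowest. The genes are near copies and the Chil4 probe may also bind Chil3 RNA, which was not tested.

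Retnla, the secreted protein FIZZ1 (also called RELMα), was at -1.70, -1.66 and -1.80 in KO hearts, against -0.67, -1.11, -0.54 and 1.08 in control hearts. It was the 1 member with every KO heart below every control, and its difference of -1.41 ± 0.46 fell short of the threshold (SE; limma, adjusted p = 0.0584). Control 4, the highest, set much of the size; without it the difference was -0.95 and passed (limma, adjusted p = 0.0346). Retnla also passed with the slide row as a block, at -1.52. Other mouse sources of Retnla include fat and airway epithelium.

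**Figure D3:**
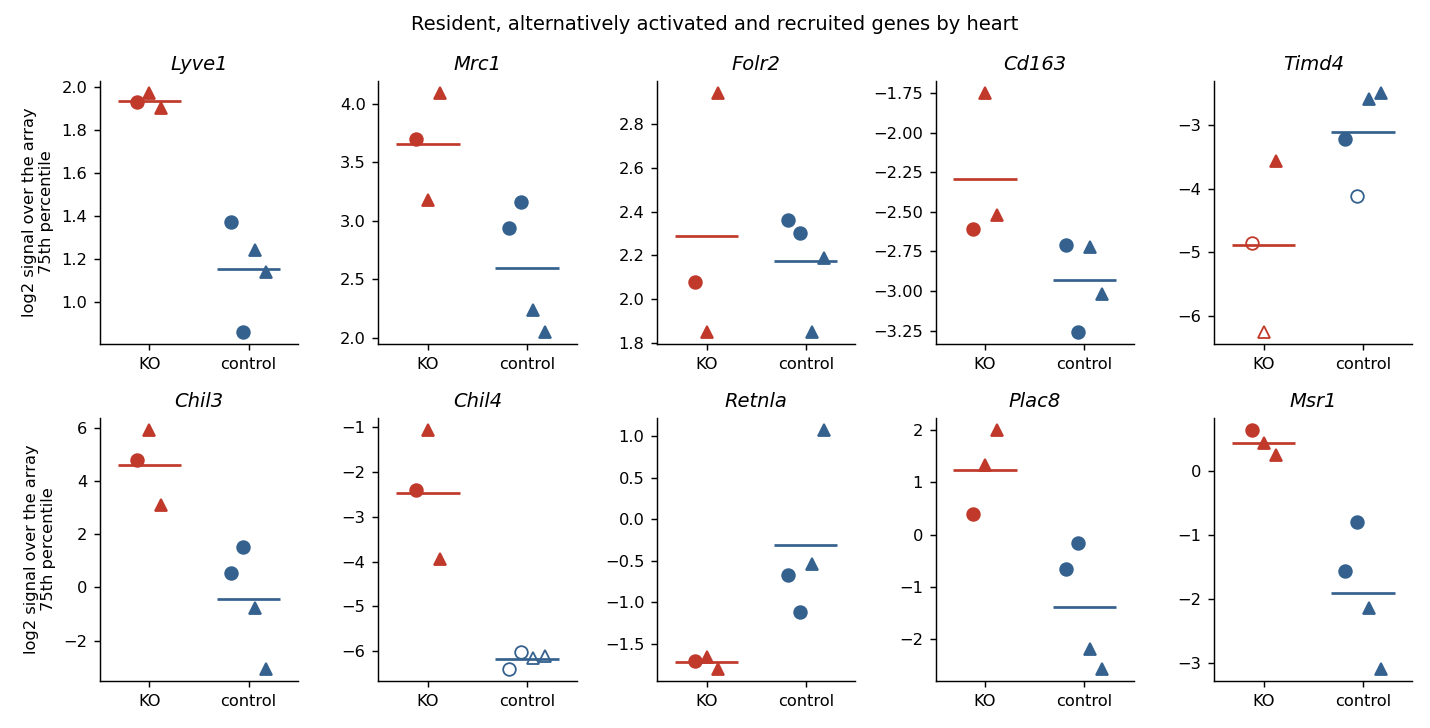
Log2 signal over the 75th percentile of the array (y axis, a scale of its own for each gene) in the KO hearts (left, red) and control hearts (right, blue) for 10 genes. Lines are group means, circles are slide row 1, triangles slide row 2, and open symbols mark signals not well above background; Chil3, Chil4, Plac8, Msr1, Lyve1 and Mrc1 are higher in all KO hearts, Retnla is lower in all KO hearts, and the Chil4 control signals are all background.

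Of 9 further genes of alternative activation that passed the filter, 4 rose and 0 fell, against 10.2% and 15.0% of all features. Arg1, arginase 1, was at 2.91, 2.53 and 1.57 in KO hearts, against -1.99, -0.37, -5.96 and -5.79 in control hearts, where 2 of 4 were well above background. Arg1 thus passed the filter through the KO hearts alone. It rose by 5.86 ± 1.34 (SE; limma, adjusted p = 0.0216), partly against background-level control signals, or by 3.78 with normexp. Il4ra, the interleukin-4 receptor chain, rose by 1.75 ± 0.38, and Tgm2, a transglutaminase also made by endothelium, by 0.84 ± 0.17 (SE; limma, adjusted p = 0.0195 and 0.0163). Slc7a2, a transporter of cationic amino acids such as arginine, was above background in KO hearts only and at least 1.03-fold higher. It too passed the filter through the KO hearts alone. Il10 was above background on no array.

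Because Chil3 and Retnla belong to the same textbook programme and lay on opposite sides of the controls, the 250 bases before their starts are shown with those of Chil4 and of Mrc1, from RefSeq on GRCm38.p6. The windows are Chil3 at chr3:106167565-106167814 on the minus strand, Chil4 at chr3:106219480-106219729 on the minus strand, Retnla at chr16:48842359-48842608 on the plus strand and Mrc1 at chr2:14229164-14229413 on the plus strand. Each is printed 5′ to 3′ along the gene. Capitals mark matches on either strand to the PU.1 core GAGGAA, to TTC and GAA with 4 bases of any kind between them, which STAT6, the factor downstream of interleukin-4, can bind, and to the C/EBP half-site pair TTGCNNAA.
Chil3: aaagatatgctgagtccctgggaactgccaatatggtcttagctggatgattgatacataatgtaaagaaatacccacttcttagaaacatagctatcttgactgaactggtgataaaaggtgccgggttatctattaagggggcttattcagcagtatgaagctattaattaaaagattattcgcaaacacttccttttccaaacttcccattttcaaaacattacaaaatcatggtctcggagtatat
Chil4: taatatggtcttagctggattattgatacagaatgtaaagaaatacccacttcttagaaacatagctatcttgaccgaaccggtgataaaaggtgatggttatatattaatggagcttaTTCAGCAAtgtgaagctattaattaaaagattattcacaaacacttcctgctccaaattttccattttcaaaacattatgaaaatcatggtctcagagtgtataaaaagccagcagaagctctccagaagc
Retnla: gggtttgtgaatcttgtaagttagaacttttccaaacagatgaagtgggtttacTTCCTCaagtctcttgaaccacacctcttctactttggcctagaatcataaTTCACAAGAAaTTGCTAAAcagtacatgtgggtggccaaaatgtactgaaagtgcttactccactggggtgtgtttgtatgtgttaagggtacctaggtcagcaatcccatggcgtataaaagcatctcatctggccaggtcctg
Mrc1: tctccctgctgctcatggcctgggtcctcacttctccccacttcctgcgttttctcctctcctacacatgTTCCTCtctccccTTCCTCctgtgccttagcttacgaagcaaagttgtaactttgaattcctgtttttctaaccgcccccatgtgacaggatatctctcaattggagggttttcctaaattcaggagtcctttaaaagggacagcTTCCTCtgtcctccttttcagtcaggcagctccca

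The Chil3 window held none of the 3 motifs, and the Chil4 window held 1 C/EBP match starting 131 bases before the start. These 2 windows were identical at 201 of 279 aligned columns, or 72.0%, with gaps counted as columns. The windows are offset against each other, so bases at their ends without a partner lower this percent. The Retnla window held a PU.1 core at 196 bases, a STAT6 match at 145 and a C/EBP match at 134, the last 2 side by side without overlap. The Mrc1 window held 3 PU.1 cores, at 180, 167 and 35 bases. Across 37 windows of 31 of the 39 genes, the PU.1 core was present in 16, or 43.2%, against 23.3% of 32851 windows of all genes. These 16 windows belong to 14 genes, and Fcgr3 and Ly6c2 are each counted through 2 overlapping windows. The STAT6 motif was present in 13.5% against 5.85%, and the C/EBP motif in 18.9% against 9.56%. These motifs were chosen with the expression results known, and a match is a stretch of letters, not a measured site.

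Among the growth factor and receptor genes, Csf1, which encodes the main growth factor of macrophages, was at 3.71, 3.47 and 3.05 in KO hearts, against 2.41, 2.59, 2.63 and 2.64 in control hearts. It rose by 0.84 ± 0.18 (SE; limma, adjusted p = 0.0181), and here the controls were close together. The other 2 Csf1 probes, on another transcript accession, gave 0.30 and 0.26, and the mean over the probes gave 0.47, which passed. Csf1r, its receptor, was at 5.21, 4.87 and 5.79 in KO hearts, against 5.35, 5.13, 4.72 and 5.04 in control hearts. Those groups overlapped, and the difference was 0.23 (95% interval -0.33 to 0.79; limma, adjusted p = 0.494), or -0.02 without KO 3.

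Csf2rb, the chain shared by the receptors for GM-CSF, interleukin-3 and interleukin-5, was at 1.38, 1.35 and 1.59 in KO hearts, against 0.13, 0.37, -0.29 and -1.24 in control hearts. The KO hearts lay within a narrow band above all controls, and Csf2rb rose by 1.70 ± 0.36, with 1.22 on a second probe (SE; limma, adjusted p = 0.0180). Of 6 other genes of these growth factor systems that passed the filter, 2 rose and 0 fell, against 10.2% and 15.0% of all features. Csf2ra, the GM-CSF receptor's own chain, rose by 0.82 ± 0.20, and Csf2rb2, a near copy of Csf2rb that may share its signal, by 1.25 ± 0.34 (SE; limma, adjusted p = 0.0249 and 0.0349). The ligands Csf2 and Csf3 were above background on no array.

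Spi1 was at -2.75, -3.03 and -2.53 in KO hearts, against -3.84, -3.06, -4.03 and -4.64 in control hearts. KO 2 and control 2 were almost equal, and 2 of 4 controls were well above background, so Spi1 passed the filter through the KO hearts alone. Spi1 rose by 1.12 ± 0.34 (SE; limma, adjusted p = 0.0454), but by 0.34, which did not pass, with normexp. Of 12 other transcription factors of myeloid cells, 5 rose and 1 fell, against 10.2% and 15.0% of all features. Irf5 and Irf8, interferon regulatory factors of macrophages, rose by 1.43 ± 0.33 and 0.92 ± 0.23, and Runx1 by 2.25 ± 0.56 (SE; limma, adjusted p = 0.0216, 0.0267 and 0.0269). The gene that fell was Nr1h3, the oxysterol receptor LXRα, named here after its value was seen, at -0.52 ± 0.16 (SE; limma, adjusted p = 0.0499).

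None of 4 pan-macrophage genes passed, against 10.2% of all features called higher and 15.0% lower. Of the 4, 2 had an unadjusted p under 0.05, as did 9510 of 22344 features (limma). Cd68, an endosomal glycoprotein, was at 3.94, 3.58 and 4.43 in KO hearts, against 3.30, 3.57, 1.97 and 2.06 in control hearts. KO 2 and control 2 were level, and the difference was 1.26 ± 0.44 (SE; limma, adjusted p = 0.0669); it passed with normexp and with the slide row as a block. Adgre1, the F4/80 antigen, was at 1.54, 0.99 and 2.75 in KO hearts, against 2.02, 2.13, 0.93 and 1.03 in control hearts. Its values interleaved, with a difference of 0.24 (95% interval -0.85 to 1.32; limma, adjusted p = 0.724) that was -0.53 within row 1 and 0.89 within row 2.

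Ms4a7, a membrane protein of macrophages, followed the same order of hearts as Adgre1 within each group, with 2.22, 1.40 and 3.63 in KO hearts, against 2.59, 2.76, 0.98 and 1.29 in control hearts. Its difference was 0.51 (95% interval -0.91 to 1.93; limma, adjusted p = 0.552). Mertk, a receptor for the uptake of apoptotic cells, was at -0.06, -0.06 and -0.25 in KO hearts, against -0.56, -0.52, -0.29 and -0.62 in control hearts. Its KO hearts were all higher by a small margin, 0.38 ± 0.14, that did not pass (SE; limma, adjusted p = 0.0766).

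The Fc receptors and their adaptors were the group with the most calls, 5 of 6, against 10.2% of all features called higher. Fcgr1, the high-affinity IgG receptor, was at 1.14, 1.19 and 1.40 in KO hearts, against -0.12, 0.40, -0.96 and -1.04 in control hearts, and rose by 1.67 ± 0.35 (SE; limma, adjusted p = 0.0179). Fcgr4, a receptor for IgG2 subclasses in mice, was at -0.52, -0.11 and 0.56 in KO hearts, against -1.08, -0.93, -2.08 and -2.12 in control hearts, and rose by 1.53 ± 0.38 (SE; limma, adjusted p = 0.0266). Fcgr3, the low-affinity activating receptor, was at 1.46, 1.68 and 1.91 in KO hearts, against 1.02, 1.08, 0.46 and 0.44 in control hearts, and rose by 0.94 ± 0.21 (SE; limma, adjusted p = 0.0216). In all 3 activating receptors the KO hearts stood above the controls, and the controls fell into 2 pairs by slide row.

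Fcgr2b, the inhibitory member of the family, was at 1.61, 1.16 and 2.12 in KO hearts, against 1.26, 1.02, 0.39 and -0.07 in control hearts. KO 2 lay below control 1, and the difference of 0.98 ± 0.36 did not pass (SE; limma, adjusted p = 0.0753), though it did with the slide row as a block, at 1.08. The common γ chain Fcer1g was at 4.82, 4.41 and 5.02 in KO hearts, against 3.66, 4.08, 2.76 and 2.90 in control hearts, and rose by 1.40 ± 0.34 (SE; limma, adjusted p = 0.0242). Tyrobp, the adaptor DAP12, was at 4.61, 4.40 and 4.86 in KO hearts, against 3.83, 4.03, 2.90 and 2.99 in control hearts, and rose by 1.19 ± 0.31 (SE; limma, adjusted p = 0.0292). Fcgr4, Fcer1g and Tyrobp lost their calls without KO 3 too, and these 3 with Fcgr3 without control 3 or control 4. The receptors of this family are similar in sequence, and how far each probe separates them was not tested.

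Downstream of the adaptors, 7 of 13 signalling genes rose and 0 fell, against 10.2% and 15.0% of all features. Their median difference was 1.098. Hcst, the adaptor DAP10, rose by 1.48 ± 0.23, and the kinases Fgr and Btk by 2.49 ± 0.58 and 1.36 ± 0.36 (SE; limma, adjusted p = 0.0123, 0.0225 and 0.0308). Most of these genes are also used by neutrophils.

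The phagocyte NADPH oxidase makes superoxide. Ncf4, its p40phox subunit, was at 2.92, 2.73 and 3.00 in KO hearts, against 1.84, 1.95, 0.74 and 0.79 in control hearts, and rose by 1.55 ± 0.33 (SE; limma, adjusted p = 0.0184). Ncf1, the organising p47phox subunit, was at 0.46, 0.04 and 0.44 in KO hearts, against -0.85, -0.42, -1.67 and -1.61 in control hearts, and rose by 1.45 ± 0.32 (SE; limma, adjusted p = 0.0198). Both cytosolic subunits were separated from the controls in each slide row, with differences of 1.03 and 1.095 in row 1 and 2.10 and 1.88 in row 2. Cybb, the catalytic gp91phox chain, was at -2.22, -2.14 and -1.45 in KO hearts, against -1.99, -1.88, -2.56 and -2.75 in control hearts. Its groups overlapped, with a difference of 0.36 (95% interval -0.29 to 1.01; limma, adjusted p = 0.355) that was -0.28 within row 1 and 0.86 within row 2. Of the other oxidase genes 3 of 4 rose, against 10.2% of all features. Cyba, the p22phox partner of Cybb, rose by 0.70 ± 0.15 (SE; limma, adjusted p = 0.0189). Rac1, a GTPase of all cells, rose by 0.77 ± 0.18, and Rac2, its blood cell form, by 1.51 ± 0.46 (SE; limma, adjusted p = 0.0224 and 0.0462).

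Of the 7 genes for lysozyme, proteases, lectins, lipid handling and scavenging, 1 rose, against 10.2% of all features. Msr1, the class A scavenger receptor, was at 0.64, 0.43 and 0.24 in KO hearts, against -1.57, -0.80, -2.15 and -3.10 in control hearts. It rose by 2.34 ± 0.47, a 5.07-fold difference, with 2.09 on a second probe (SE; limma, adjusted p = 0.0169), and stood apart in row 1 (1.82) and row 2 (2.96). Lgals3, galectin-3, was at 5.41, 4.82 and 5.44 in KO hearts, against 4.17, 4.65, 2.42 and 1.62 in control hearts. The controls ranged widely, and its difference of 2.01 ± 0.69 did not pass (SE; limma, adjusted p = 0.0668). With the slide row as a block, Lgals3 (2.26), Ctss (1.44) and Trem2 passed too.

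Ctss, the lysosomal protease cathepsin S, was at 4.80, 4.53 and 5.43 in KO hearts, against 4.17, 4.42, 2.83 and 2.98 in control hearts, a difference of 1.31 ± 0.43 that did not pass (SE; limma, adjusted p = 0.0592). Trem2, a lipid-sensing receptor that signals through Tyrobp, was at 3.29, 2.55 and 3.63 in KO hearts, against 2.53, 2.90, 0.92 and 0.77 in control hearts. KO 2 lay below control 2, and its difference was 1.38 ± 0.57 (SE; limma, adjusted p = 0.104). Gpnmb, a glycoprotein of lipid-laden macrophages, was at -0.81, -1.93 and -0.23 in KO hearts, against -1.12, -1.02, -2.19 and -3.93 in control hearts, a difference of 1.08 (95% interval -0.60 to 2.75; limma, adjusted p = 0.286), or 0.46 without control 4.

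The 2 lysozyme genes had the smallest differences of these 7. Lyz2, the lysozyme of mouse macrophages and neutrophils, was at 2.59, 2.66 and 3.80 in KO hearts, against 2.58, 2.87, 2.15 and 2.34 in control hearts. Lyz1, its near copy, was at 5.22, 4.90 and 6.04 in KO hearts, against 5.10, 5.07, 4.31 and 4.38 in control hearts. KO 3 was the highest heart for both, and the differences were 0.53 and 0.67 (limma, adjusted p = 0.234 and 0.147), or 0.14 and 0.35 without KO 3. The 2 transcripts are similar enough that each probe may read both.

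Of 15 further lysosomal and lipid genes of phagocytes, 2 rose and 1 fell, against 10.2% and 15.0% of all features. Lipa, lysosomal acid lipase, was at 2.18, 2.24 and 2.35 in KO hearts, against 1.12, 1.01, 0.83 and 0.77 in control hearts, and rose by 1.33 ± 0.14 (SE; limma, adjusted p = 0.00728). Cd63, a lysosomal tetraspanin, rose by 0.78 ± 0.19, and Lpl, lipoprotein lipase, which cardiomyocytes make in quantity, fell by 1.09 on the log2 scale (limma, adjusted p = 0.0269 and 0.0336).

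The pan-leukocyte genes had large but uneven differences, and 1 of 4 rose, against 10.2% of all features. With the slide row as a block, Cd53 (1.64), Ptprc (1.21) and Laptm5 (1.11) passed too. Cd84, an adhesion receptor of the SLAM family, was at -0.91, -0.87 and -0.39 in KO hearts, against -1.54, -1.16, -2.29 and -2.62 in control hearts, and rose by 1.18 ± 0.35 (SE; limma, adjusted p = 0.0444). Cd53, a leukocyte tetraspanin, was at -0.57, -0.44 and -0.08 in KO hearts, against -1.09, -0.98, -2.47 and -2.89 in control hearts, a difference of 1.50 ± 0.48 (SE; limma, adjusted p = 0.0532). The KO hearts were higher in both, though the second missed the threshold. Ptprc, the leukocyte antigen CD45, was at -0.06, -0.68 and 0.42 in KO hearts, against -0.76, -0.59, -1.60 and -1.86 in control hearts, a 2.14-fold difference (limma, adjusted p = 0.0655). Laptm5, a lysosomal protein of blood cells, was at 2.05, 1.25 and 2.49 in KO hearts, against 1.50, 1.53, 0.38 and 0.38 in control hearts, with a difference of 0.98 ± 0.41 (SE; limma, adjusted p = 0.105). In both of these last genes KO 2 lay below control 2.

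**Figure D4:**
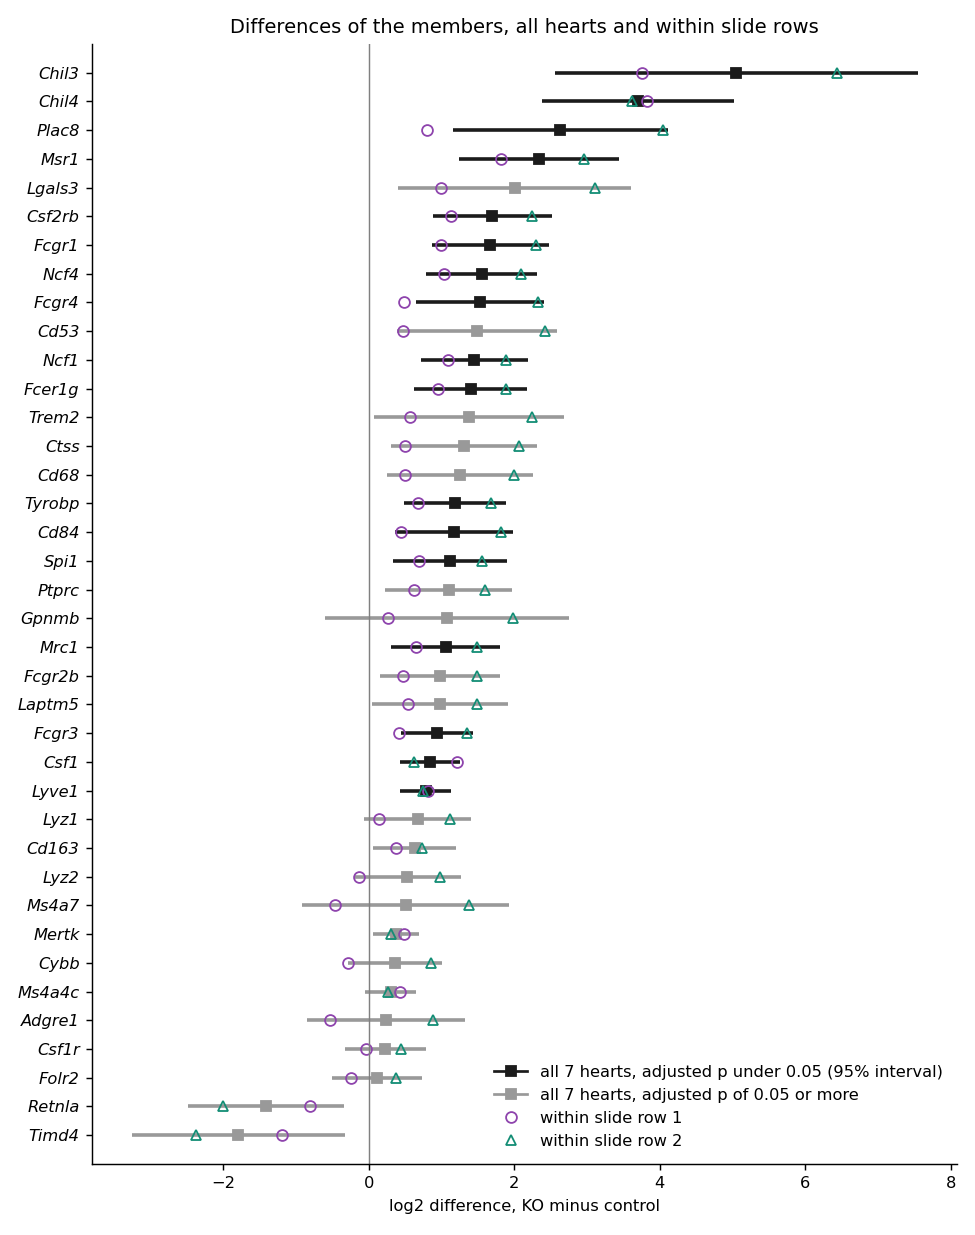
KO minus control difference in log2 signal (x axis) for each of the 38 genes, ordered by size. Squares and bars are the difference over all 7 hearts and its unadjusted 95% interval, black where the adjusted p was under 0.05 and grey otherwise; open circles and triangles are the differences within slide row 1 and slide row 2. In 36 genes the difference over all hearts is above 0, and the median difference is 0.50 within row 1 and 1.58 within row 2.

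Markers of other cells differed between the groups too. Of 8 neutrophil markers that passed the filter, 6 rose and 0 fell, against 10.2% and 15.0% of all features. Their median difference was 3.09, against 1.09 for the monocyte and macrophage genes, or 1.37 against 0.88 with normexp. Several passed the filter through the KO hearts alone, with few or no control hearts well above background, so their sizes are uncertain. The median shift of the neutrophil markers against the control mean was 3.33, 3.31 and 1.60 in KO hearts, so that KO 3, the highest heart for most monocyte and macrophage genes, was the lowest for these. KO 3 was the lowest KO heart in 7 of the 38 monocyte and macrophage genes, Chil3 and Chil4 among them. The summed linear level of the neutrophil markers was 102.2 to 178.1 in KO hearts and 114.3 to 176.7 in control hearts, ranges set by 1 bright probe, that of Csf3r, named here after its value was seen (a log2 difference of -0.23; limma, adjusted p = 0.442); Ltf was above background on no array. The part of neutrophils in the results for shared genes was not tested.

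Other blood cells showed less. Of 5 dendritic cell markers that passed, 1 rose and 0 fell, against 10.2% and 15.0% of all features. Their summed level was 126.9 to 163.3 in KO hearts and 139.7 to 192.4 in control hearts. Xcr1 was above background on no array. The summed ranges were set mostly by 1 bright probe, that of Siglech, named here after its value was seen (a log2 difference of -0.19; limma, adjusted p = 0.406), while 4 of the 5 markers had a difference above 0 and their median was 0.85. None of 4 T and NK cell markers, 1 B cell marker or 4 mast cell and basophil markers passed the test. Their summed levels were 4.363 to 4.925, 0.3238 to 0.5783 and 1.023 to 1.508 in KO hearts, and 4.471 to 5.889, 0.1932 to 0.3683 and 1.071 to 1.440 in control hearts. Cd3g, Cd8a, Ncr1, Klrb1c, Cd79a, Pax5, Mcpt8, Ms4a2 and the eosinophil markers Epx, Prg2 and Ccr3 were above background on no array, and no eosinophil marker passed the filter.

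Among heart cells, 4 of 8 cardiomyocyte markers fell and 0 rose, against 15.0% and 10.2% of all features. Their median difference was -0.62 and their summed level 3392 to 4099 in KO hearts and 4423 to 6403 in control hearts. Fibroblast and endothelial markers had 1 of 8 higher and 1 of 8 lower each, near the shares of all features. Of 6 smooth muscle and pericyte markers 0 rose and 1 fell. Since each array was scaled to its own 75th percentile, a smaller share of cardiomyocyte RNA and a larger share of leukocyte RNA cannot be told apart from these values.

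**Figure D5:**
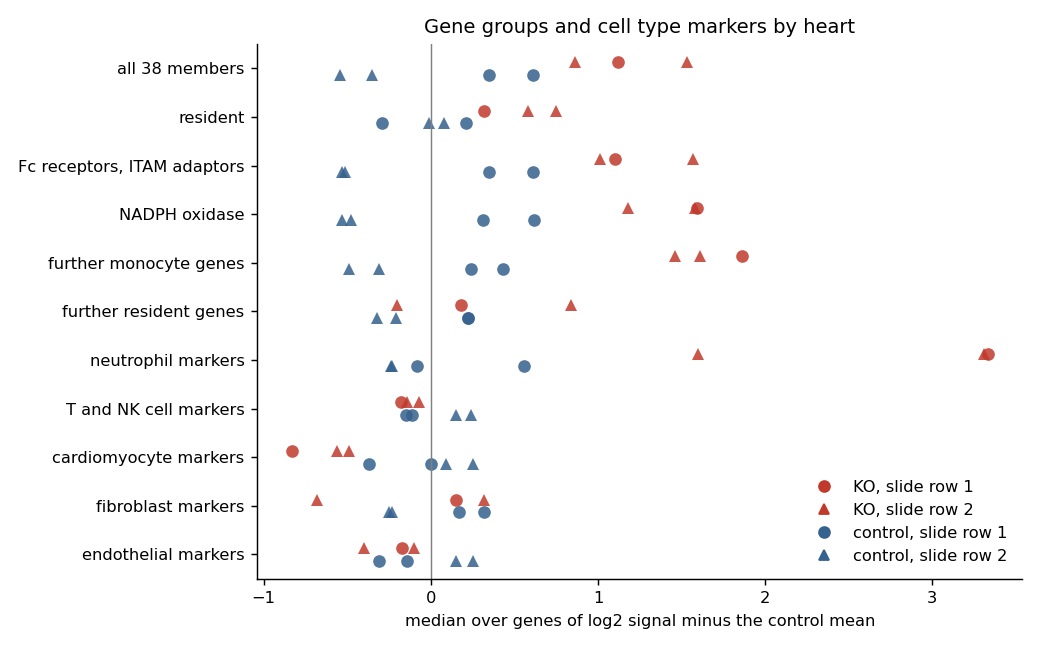
Median over the genes of a list of the log2 signal minus the control mean (x axis), for each heart; rows are the 38 genes, groups of them, further genes of the same functions and markers of other cells. Red symbols above are KO hearts and blue symbols below control hearts, with circles for slide row 1 and triangles for slide row 2; KO 3 has the highest value of the 38 genes (1.53) and the lowest KO value of the neutrophil markers (1.60).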

How the data were processed

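Total RNA (100 ng per labelling) from 7 heart apices was measured on 1-colour Agilent arrays; the labels name separate hearts, and p-values measure the spread between them. Per the file headers, the authors read the arrays with Feature Extraction 11.0.1.1 (1 slide, 1 scan), and the deposited files give each spot's background-subtracted processed intensity for 62976 spots, 3671 of them controls. The authors' deposited value table holds log2 values; set against the scanner files (r = 0.986 to 0.998 over 23588 bright probes) higher means more signal, 100% of its rows had a median of 0, and the scaling stays unknown. Column medians were -0.00212 (KO 2), 0.0079 (control 4) and 0 on each other array.

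Here control and outlier spots were left out, spots of a probe averaged, and log2 intensities set against each array's 75th percentile. A probe was kept if 3 or more arrays of either group showed it well above background (26576 of 55681). Names came from RefSeq accessions (28026 probes with 1 symbol, 27655 with none, 0 with several), and the brightest kept probe stood for a gene, giving 22344 features, 13697 named. The 2 groups were compared with limma 3.58.1 (R 4.3.3), and p-values were adjusted by Benjamini-Hochberg across the 22344 features (threshold 0.05). A gene dark in 1 group is given as a bound against the lowest detected signal or its own, whichever was higher. The number of arrays limits the precision.

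The 39 genes, the further lists and the motifs were chosen with earlier results of these data known, and nothing is adjusted over a list alone. Every measured member is named; of each further list, the 4 genes with the lowest p were eligible, of marker lists only those dark on every array. Exceptions are marked, and some eligible genes are not reported here. On simulated data of 22302 features the fit recovered 0, 23, 43 and 44 of 50 genes changed by 0.5, 1, 2 and 3 (log2). No other feature was changed there, a far smaller share than the 25.2% called in the data, so recovery in the data may differ. Background correction, scaling, filters, probe rule, variance model, array weights, blocks, left-out hearts and threshold were varied.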

Additional observations from a re-analysis of the deposited data

How the results depend on the processing

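The median difference stayed above 0 in every alternative run; 36 of 38 genes were above 0, 32 without KO 3, 34 with array weights and 30 within slide row 1. Over 680 values of single genes, 534 kept direction and side of the threshold, 93 lost the call, 47 gained it and 6 turned: Folr2 and Adgre1 with array weights (-0.12 each), and Folr2, Adgre1, Csf1r and Ms4a7 without KO 3; the cause was not tested. With 1 heart left out Folr2 ranged from -0.21 to 0.34, Adgre1 from -0.26 to 0.62, Csf1r from -0.020 to 0.44 and Ms4a7 from -0.10 to 1.02. Members called higher numbered 17, between 17 and 22 under normexp, quantile, median centring, the all-array filter, the authors' table, the mean over probes and a trended variance, 25 at a threshold of 0.1 and 27 with array weights. They fell to 1 without the filter, which tests 48809 features and called 1415. All features called numbered 11999 with array weights (KO 1 had a weight of 6.53, the rest 0.455 to 1.70) and 8731 at 0.1. Members called lower were 1 with the all-array filter, a trended variance or the slide row as a block and 2 with array weights or at 0.1. Leaving out 1 heart gave 69 (without KO 1) to 6970 (without control 2) features called, 0 to 23 members higher, 0 to 2 lower and a median of 0.88 to 1.34. Same-numbered hearts did not deviate together (r = 0.18, -0.22 and -0.20), and differently numbered hearts gave r from -0.32 to 0.39. So few hearts cannot show whether the numbers pair them. With replicate number as a block, which drops control 4, 9 features and 1 member (Chil3) were called. Within slide rows, chosen after seeing the data, the median was 0.50 and 1.58. Signals near background have no reliable size: with normexp Chil4 differed by 1.14, Spi1 by 0.34 and Timd4 by -0.58.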
